A study of Mus musculus with 23 samples.

Results

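The axon guidance ligands and receptors are the genes of 4 signalling systems through which a growing neurite reads its surroundings: ephrins with Eph receptors, semaphorins with plexins and neuropilins, Slits with Robos, and netrins with Dcc and Unc5 receptors. They were chosen by gene name, as every protein-coding mouse gene whose symbol names an EphA or EphB receptor, an ephrin, a class 3 to 7 semaphorin, a plexin, a neuropilin, a Slit, a Robo, a netrin, a netrin-G, an Unc5 receptor or Dcc. The annotation holds 71 such genes. Of these, 70 were among the 45706 genes of the count table, and Ntn3 was not analysed here. A filter on low counts passed 18823 genes in all and 69 of the 70 members, leaving out Epha1. The rule uses gene names and no measured value, but it was chosen with earlier results of these data known.

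Polyadenylated RNA from mouse hippocampus was sequenced in 23 libraries of 3 kinds of neurons, which the titles call CamK, Grik and SST. The labels call CamK and Grik samples excitatory pyramidal cells and SST samples somatostatin-positive interneurons, and the design text of the series speaks of CA1, CA3 and SST+ cells. Each population was taken from mice with the genotype SLM2 WT (WT; 4 CamK, 4 Grik and 4 SST libraries) or SLM2 cKO (cKO; 3 CamK, 4 Grik and 4 SST libraries). SLM2 is an RNA-binding splicing regulator encoded by Khdrbs3, and cKO stands for a conditional knockout. The sources used here do not give how the cells or their RNA were isolated, the promoter that drives the recombinase, the deleted exons, or the strain and age of the mice. The labels do not say whether replicates are separate mice, so p-values measure the spread between these samples.

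Gene totals ran from 87612006 to 112993538 reads per library (median 91378465), and no pair of replicates was as close as resequencing of 1 library would be, the smallest chi-square per degree of freedom being 8.27. The 4 CA1 markers summed to 1118 to 1531 counts per 1000000 reads (CPM) in CamK WT libraries and to 62.0 to 95.7 CPM in Grik WT libraries. The 4 CA3 markers summed to 886 to 969.6 CPM in Grik WT libraries and to 176 to 209 CPM in CamK WT libraries, and the 5 inhibitory markers to 5797 to 6738 CPM in SST WT libraries and at most 144 CPM in the other WT libraries. In SST WT libraries the 4 excitatory markers summed to 749 to 882 CPM, against 5286 to 5755 CPM in CamK WT and 6637 to 7675 CPM in Grik WT libraries. The 4 CA1 markers summed to 392 to 406 CPM in SST WT libraries, where Mpped1 had a mean of 334 CPM. Markers of other cell types were present, and each had reads in at least 1 library of every group, with 2 of the 6 endothelial and mural markers at 0 reads in at least 1 CamK WT library. The 6 oligodendrocyte and precursor markers summed to 138 to 207 CPM in CamK WT, 639.8 to 859 CPM in Grik WT and 258 to 569 CPM in SST WT libraries. The 4 dentate granule cell markers summed to 165 to 363 CPM in CamK WT and 179 to 191 CPM in Grik WT against 35.4 to 47.5 CPM in SST WT libraries, and their part in the differences of CamK and Grik from SST was not tested. A non-neuronal score, the mean centred log2 CPM over astrocyte, oligodendrocyte, microglial and vascular markers, ran from -2.32 to -1.11 in CamK WT, 0.0252 to 0.445 in Grik WT and 0.394 to 1.16 in SST WT libraries. The score was used as a covariate in an alternative fit of the comparisons between WT populations. Khdrbs3 itself was at 356 to 413 CPM in CamK WT against 249 to 294 CPM in CamK cKO, and at 123 to 139.8 CPM in SST WT against 82.6 to 106 CPM in SST cKO. In Grik it was at 327 to 347 CPM in WT libraries and at 396 to 439 CPM in the libraries labelled cKO, which goes against the label. The log2 fold change was -0.42 in CamK (edgeR adjusted p = 0.114), 0.30 in Grik (0.499) and -0.47 in SST (0.0309). Counts over the whole gene include any exon that was not deleted, so the level of Khdrbs3 is a weak check of the genotype.

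As background, guidance molecules attract or repel growth cones during development and remain expressed in the adult brain, where many act at synapses. Ephrin-A ligands are tethered to the membrane by a lipid anchor and ephrin-B ligands span it. Both can signal back into the cell that carries them. Class 3 semaphorins are secreted and mostly act through neuropilin and plexin A complexes, whereas the other vertebrate semaphorins are held at the membrane and bind plexins directly. Slits are secreted repellents read by Robo receptors, and netrins can attract through Dcc or repel through Unc5 receptors. Netrin-G proteins are lipid-anchored relatives of netrins that bind NGL adhesion proteins rather than Dcc. In the hippocampus these systems are known for layer-specific innervation, including the mossy fiber input to CA3 and the entorhinal input to CA1.

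The sequences before the RefSeq start of 6 members are shown, chosen by their difference between a population and both others among members with a single RefSeq start. They are the 2 per population, among members with a single RefSeq start, whose 4 WT libraries all stood above the other 8 and whose smaller difference from the other populations was largest. Members under 1 CPM were left out. Unc5d, highest in SST, is not shown, although its smaller difference (Grik minus SST, log2 -3.15) exceeded those of Ntn4 and Efna5 in size. Each window is the 250 bases before the annotated start, from RefSeq for build GRCm38.p6, written 5′ to 3′ on the strand of the gene. Plxnd1 (chr6:115995006-115995255, minus strand) and Ntng1 (chr3:110143473-110143722, minus strand) were highest in CamK. Slit2 (chr5:47982905-47983154, plus strand) and Sema3d (chr5:12382916-12383165, plus strand) were highest in Grik, and Ntn4 (chr10:93640799-93641048, plus strand) and Efna5 (chr17:62881318-62881567, minus strand) in SST. In the GENCODE annotation used here for gene lengths, the windows of Ntng1 and Ntn4 lie inside the gene, and that of Slit2 ends inside it. The window of Sema3d ends upstream of the GENCODE start of its gene, which is at 12383385. Capitals mark GGGCGG, the core of a GC box, on either strand.
Plxnd1: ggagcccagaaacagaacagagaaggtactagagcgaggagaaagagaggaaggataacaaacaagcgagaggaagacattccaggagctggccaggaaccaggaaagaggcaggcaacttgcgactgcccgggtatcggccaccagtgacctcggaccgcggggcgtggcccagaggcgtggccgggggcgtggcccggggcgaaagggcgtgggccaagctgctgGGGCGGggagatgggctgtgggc
Ntng1: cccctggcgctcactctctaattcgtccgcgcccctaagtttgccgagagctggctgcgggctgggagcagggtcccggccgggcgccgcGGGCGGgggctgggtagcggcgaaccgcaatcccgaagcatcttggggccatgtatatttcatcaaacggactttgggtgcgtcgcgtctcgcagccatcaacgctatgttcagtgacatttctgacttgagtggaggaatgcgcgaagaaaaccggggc
Slit2: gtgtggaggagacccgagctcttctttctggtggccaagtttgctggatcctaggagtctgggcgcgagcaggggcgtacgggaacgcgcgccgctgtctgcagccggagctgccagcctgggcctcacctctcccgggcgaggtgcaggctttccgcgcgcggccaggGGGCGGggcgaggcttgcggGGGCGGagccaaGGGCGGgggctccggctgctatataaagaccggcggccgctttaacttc
Sema3d: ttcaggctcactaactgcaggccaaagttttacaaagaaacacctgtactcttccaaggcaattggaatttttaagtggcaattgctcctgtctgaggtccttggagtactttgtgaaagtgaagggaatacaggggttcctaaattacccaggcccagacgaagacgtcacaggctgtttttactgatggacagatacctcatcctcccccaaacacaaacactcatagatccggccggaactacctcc
Ntn4: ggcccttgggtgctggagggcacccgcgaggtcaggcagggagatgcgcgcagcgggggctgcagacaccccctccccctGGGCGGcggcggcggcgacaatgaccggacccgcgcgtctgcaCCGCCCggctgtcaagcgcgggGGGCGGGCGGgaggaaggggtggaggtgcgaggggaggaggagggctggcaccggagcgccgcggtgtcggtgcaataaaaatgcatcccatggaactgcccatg
Efna5: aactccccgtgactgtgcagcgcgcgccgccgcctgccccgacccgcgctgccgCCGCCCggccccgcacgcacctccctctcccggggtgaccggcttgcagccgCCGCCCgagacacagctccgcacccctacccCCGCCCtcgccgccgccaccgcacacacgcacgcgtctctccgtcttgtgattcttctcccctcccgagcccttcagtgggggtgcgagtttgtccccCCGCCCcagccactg

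Of the 6 windows, that of Sema3d had the lowest GC content and no GC box. Its GC content was 46.8%, with 4 CpG pairs, while the others had a GC content of 62.4 to 74.8%, 16 to 32 CpG pairs and 1 to 4 copies of GGGCGG. It was also the one of the 6 with a match to CANNTG, the E-box pattern, of which it had 3, and TATAAA was found in the Slit2 window alone. Over the 77 windows that RefSeq gave for 61 members, GGGCGG was present on either strand in 70.1%, against 42.6% of the 21263 windows of 17492 protein-coding genes. CANNTG was present in 48.1% against 62.8% and TATAAA on either strand in 2.6% against 11.6%, and the median GC content was 64.4% against 55.6%. A CANNTG match can share its end base with a GGGCGG match. These shares describe the letters of the windows, and members with several starts count more than once.

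Nearly all members were detected in these neurons. Of the 70 in the table, 65 had a mean of at least 1 CPM in the WT libraries of at least 1 population, with 63 in CamK, 59 in Grik and 61 in SST. To compare genes with each other, CPM was divided by the summed exon length in kb, and the median member stood at 2.11 CPM per kb in CamK, 2.18 in Grik and 1.51 in SST. Epha4, a receptor for both classes of ephrin, had the highest level per length of any member in Grik, at 62.2 ± 3.33 CPM per kb (SD, n = 4). Sema7a, a lipid-anchored semaphorin, was the highest in CamK at 42.4 ± 4.87 CPM per kb (SD, n = 4) and in SST at 19.0 ± 1.77 CPM per kb (SD, n = 4).

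In 7 of the 14 families the same member led in every population. On the scale of CPM per kb, this held for Sema7a among membrane semaphorins, Efna3 among ephrin-A ligands, Efnb3 among ephrin-B ligands, Ephb6 among EphB receptors, Sema3e among secreted semaphorins, Plxna1 among A plexins and Slit1 among Slits. The leader differed between populations in other families. Unc5a led the Unc5 and Dcc receptors in CamK and in Grik, where it was at 24.6 ± 4.35 CPM per kb (SD, n = 4), and Unc5d led in SST at 13.7 ± 2.22 CPM per kb (SD, n = 4). The highest plexin of the B, C and D classes was Plxnd1 in CamK and Plxnc1 in Grik and SST. Epha6 led the EphA receptors in SST and Epha4 in CamK and Grik. Robo2 led in CamK and SST and Robo1 in Grik, Nrp2 in SST and Nrp1 in both excitatory populations, Ntn4 in SST and Ntn5 in both excitatory populations, and Ntng1 in SST and Ntng2 in both excitatory populations. With the longest coding sequence as the length, the leader changed in 7 of the 42 combinations of family and population, and Plxna1, Efna3 and Sema3e no longer led in every population, while Plxnc1 came to lead its family in every population, so that 5 families had 1 leader. On that scale Epha4 had the highest level of any member in CamK as well as in Grik, and Efnb3 the highest in SST, in place of Sema7a. In SST, Epha5 then stood in for Epha6, Efna5 for Efna3, Sema3a for Sema3e and Plxna2 for Plxna1. In CamK, Plxna4 stood in for Plxna1, Plxnc1 for Plxnd1 and Ntng1 for Ntng2.

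**Figure D1:**
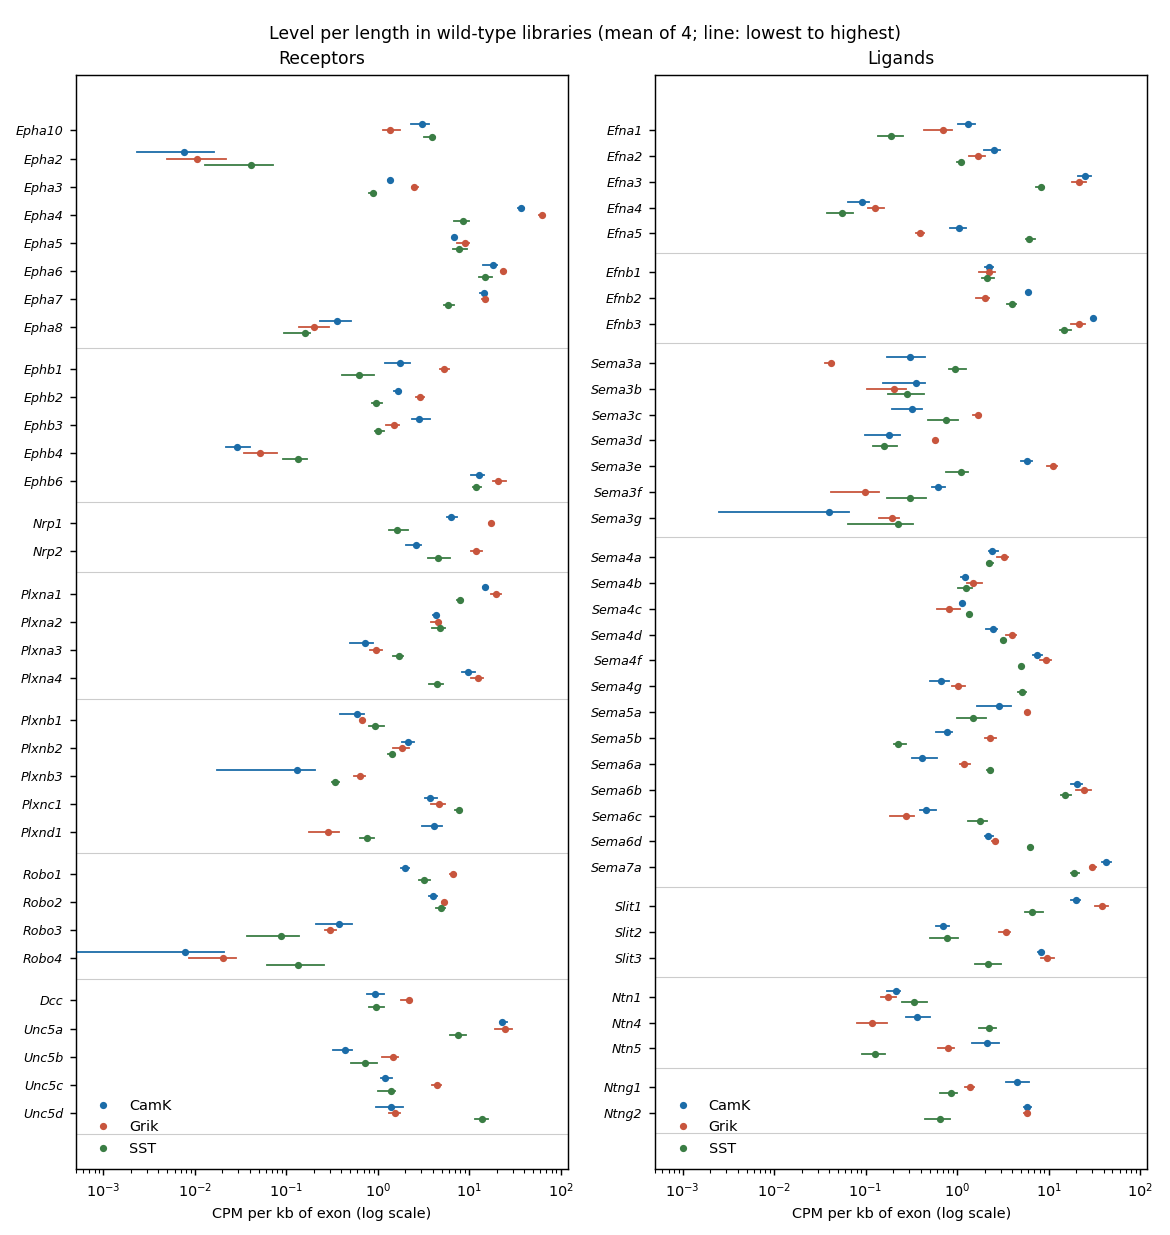
Level of each tested member in CPM per kb of exon (log scale) in WT libraries of CamK (blue), Grik (red) and SST (green), receptors on the left and ligands on the right, with points for the mean of 4 libraries and lines from the lowest to the highest. Members span several orders of magnitude, and Robo4 (at 0 in 1 CamK library, so that its line runs off the axis), Epha2 and Ephb4 lie lowest among the receptors.

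The first question was how the WT populations differ in these genes. A member was called when its adjusted p was under 0.05 in edgeR's quasi-likelihood test with Benjamini-Hochberg adjustment over all 18823 genes. Of the 69 members, 65 were called in at least 1 of the 3 comparisons, against 75.6% of all genes, and 38 in all 3, against 20.8% of all genes. Between CamK and Grik, 50 of 69 members were called, 17 higher in CamK and 33 higher in Grik, against 42.0% of all genes (20.9% and 21.1% by direction). Between CamK and SST, 56 were called, 32 higher in CamK and 24 higher in SST, against 60.1% of all genes (29.5% and 30.5%). Between Grik and SST, 59 were called, 40 higher in Grik and 19 higher in SST, against 57.3% of all genes (28.1% and 29.2%). Members differed by more than genes at large: the median absolute log2 fold change was 0.77 between CamK and Grik, 1.16 between CamK and SST and 1.32 between Grik and SST, against 0.34, 0.54 and 0.51 over all genes. Calls of at least 2-fold numbered 24, 39 and 41 of 69 members in the same order, against 14.7%, 27.7% and 26.3% of all genes. In these bulk samples, fewer cells of a type and less RNA per cell cannot be told apart.

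By WT means without the non-neuronal covariate, Grik was the population with the most guidance genes at their highest level. The highest WT mean lay in Grik for 34 of 69 members, in SST for 19 and in CamK for 16, whereas over all genes the shares were 28.0% for Grik, 40.5% for SST and 31.5% for CamK. All 4 Grik libraries stood above the other 8 for 21 members (9.67% of all genes), all 4 SST libraries for 15 (18.7%) and all 4 CamK libraries for 9 (9.98%). All 4 SST libraries stood below the other 8 for 23 members (17.6% of all genes), all 4 Grik libraries for 8 (7.75%) and all 4 CamK libraries for 7 (9.41%). Between the excitatory populations, 19 of 33 receptors were higher in Grik and 4 higher in CamK (21.1% and 20.9% of all genes), but 8 and 6 with the non-neuronal covariate (9.87% and 10.9% of all genes). Of 36 ligands, 14 were higher in Grik and 13 higher in CamK, but 3 and 13 with the covariate. Between Grik and SST, 21 ligands were higher in Grik and 11 higher in SST, and 19 receptors were higher in Grik and 8 higher in SST (28.1% and 29.2% of all genes). Between CamK and SST, 17 ligands were higher in CamK and 11 higher in SST, and 15 receptors were higher in CamK and 13 higher in SST (29.5% and 30.5% of all genes).

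The non-neuronal score, whose ranges in CamK and Grik WT libraries do not overlap, moved with the comparison of these populations. Its ranges in CamK and SST WT libraries do not overlap either. Differences of CamK from Grik or SST with the covariate, also those that changed sign, thus extend the fitted slope to scores that the 2 groups do not share. The counts of highest means and of libraries above all others were not run with the score as a covariate. With it, 30 members were called, 19 higher in CamK and 11 higher in Grik, and the share of all genes called fell to 20.7% (10.9% and 9.87% by direction). Of the 50 calls without it, 27 were kept in the same direction, 16 higher in CamK and 11 higher in Grik. In CamK against SST, 44 members were called with the covariate, 34 higher in CamK and 10 higher in SST, against 34.6% of all genes (18.6% and 16.1%), and 3 of them had been called in the opposite direction. In Grik against SST, 59 were called, 41 higher in Grik and 18 higher in SST, against 55.4% of all genes (27.8% and 27.6%). For CamK against SST, 17 receptors were called higher in CamK with the covariate, 14 of them called so without it, and 3 higher in SST. Of the ligands, 17 were called higher in CamK with it, 16 of them called so without it, and 7 higher in SST. Family counts for CamK against Grik are given below with the count under the covariate, and a call that ends there is named where that comparison of the member is described.

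**Figure D2:**
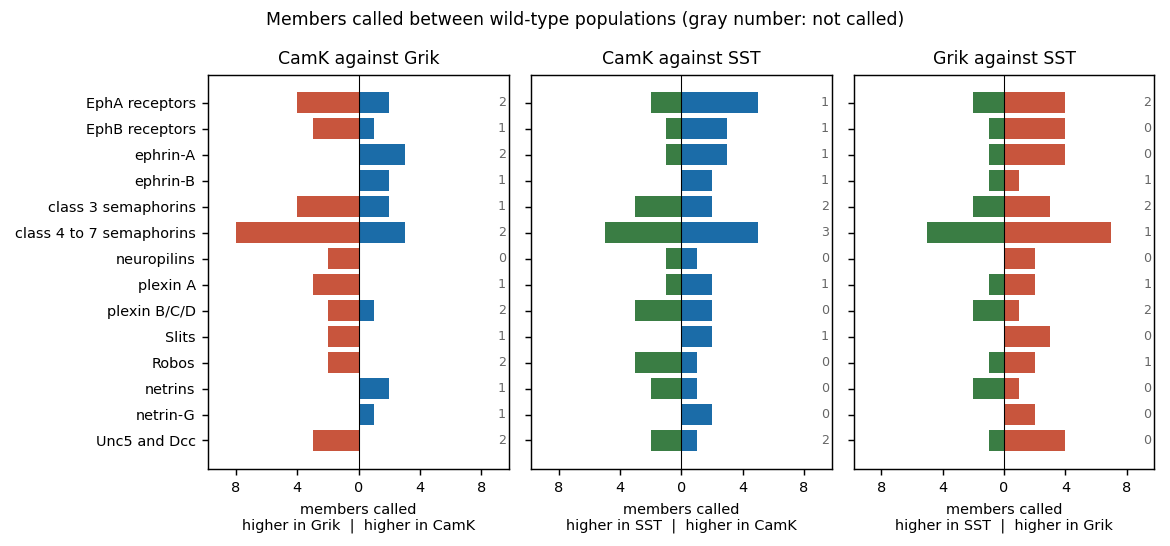
Number of members called in each WT comparison by family, in blue for higher in CamK, red for higher in Grik and green for higher in SST, with the number not called in gray. The bars of neuropilins, plexin A, Slits, Robos and Unc5 with Dcc point to Grik in the comparison with CamK, and those of ephrins and netrins to CamK. The counts are without the non-neuronal covariate, with which plexin A had no call in that comparison, Slits and Robos 1 each, and Unc5 with Dcc 2.

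Most of the 13 Eph receptors tested were higher in the excitatory populations than in SST. Between CamK and SST, 8 were higher in CamK and 3 higher in SST (29.5% and 30.5% of all genes). With the covariate these were 7 and 0 (18.6% and 16.1% of all genes in that fit). Between Grik and SST, 8 were higher in Grik and 3 higher in SST (28.1% and 29.2% of all genes), or 8 and 2 with the covariate (27.8% and 27.6%). Between CamK and Grik, 7 were higher in Grik and 3 higher in CamK (21.1% and 20.9% of all genes), but 3 and 3 with the covariate (9.87% and 10.9%). The 3 that were then higher in Grik were Epha3, Ephb2 and Ephb6. Among the 8 EphA receptors alone, the 4 higher in Grik and 2 higher in CamK became 1, Epha3, and 2, Epha8 and Epha10. Of the calls that ended, the log2 difference went from -0.37 to -0.43 for Epha6, from -0.39 to -0.28 for Epha5 and from -0.77 to -0.33 for Epha4. Epha4 was at 317, 277, 295 and 285 CPM in the CamK WT libraries, 528, 491, 517 and 468 CPM in the Grik WT libraries and 54.5, 80.4, 62.4 and 76.0 CPM in the SST WT libraries. The 3 groups did not overlap, and the log2 difference was 2.87 ± 0.12 (SE) between Grik and SST (edgeR, adjusted p = 6.54e-16) and 2.10 ± 0.12 (SE) between CamK and SST (adjusted p = 1.53e-13). The lower level in CamK than in Grik was -0.77 ± 0.11 (SE; adjusted p = 6.88e-06) and was no longer called with the non-neuronal covariate (adjusted p = 0.176). Epha10, a receptor without kinase activity, ran against this order, at 8.24 to 12.6 CPM in Grik, 16.7 to 26.0 CPM in CamK and 23.2 to 30.4 CPM in SST. Its log2 difference between Grik and SST was -1.50 ± 0.15 (SE; edgeR adjusted p = 3.91e-09), and that between CamK and SST was not called with the covariate (adjusted p = 0.687).

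EphB receptors, which bind ephrin-B ligands and organise excitatory synapses, also had their highest levels in Grik or CamK with 1 exception. Ephb1 was at 35.6, 35.8, 33.8 and 42.5 CPM in Grik, 12.2, 13.4, 8.39 and 15.6 CPM in CamK and 2.86, 3.96, 4.14 and 6.37 CPM in SST. No library of 1 population reached those of another, and Grik exceeded SST 8.52-fold (log2 3.09 ± 0.27 (SE), edgeR adjusted p = 2.52e-09). Between CamK and Grik the Ephb1 difference of -1.57 ± 0.25 (SE) had an adjusted p of 0.132 with the covariate. Ephb2 followed the same order without overlap, at 32.6 to 40.8 CPM in Grik, 19.1 to 22.8 in CamK and 10.8 to 14.0 in SST. Ephb3 was instead highest in CamK, at 15.7 to 24.8 CPM against 8.19 to 11.4 in Grik and 6.19 to 7.73 in SST. Ephb6, which lacks kinase activity, was higher in Grik (68.7 to 95.3 CPM) than in both others. Ephb4 was the exception, at 0.429 to 0.787 CPM in SST and at most 0.363 CPM elsewhere. Its difference between CamK and SST of -2.19 ± 0.42 (SE) turned to 0.41 with the covariate (adjusted p = 0.675). Between Grik and SST the Ephb4 difference was -1.38 (edgeR adjusted p = 0.00485) and -0.80 with the covariate (adjusted p = 0.0377). The 6 endothelial and mural markers summed to 9.40 to 29.7 CPM in SST WT libraries and to 1.04 to 1.64 CPM in CamK WT libraries. Their part in the level of Ephb4 was not tested beyond that fit.

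Of the 8 ephrins, 5 were called higher in CamK than in Grik and 0 higher in Grik, with and without the covariate, against 20.9% and 21.1% of all genes without it and 10.9% and 9.87% with it. Efna5, an ephrin-A that binds most EphA receptors, was highest in SST, at 22.6, 29.0, 24.5 and 22.8 CPM in SST, 3.41, 5.07, 3.60 and 4.73 CPM in CamK and 1.71, 1.76, 1.43 and 1.52 CPM in Grik. The order SST, CamK, Grik held in all WT libraries, with a 15.4-fold difference between Grik and SST (log2 -3.94 ± 0.24 (SE), edgeR adjusted p = 1.65e-12) and a 2.62-fold difference between CamK and Grik (adjusted p = 3.31e-05). Efna1 was highest in CamK, at 2.10, 2.69, 1.90 and 2.84 CPM against 0.790, 1.43, 1.34 and 1.63 CPM in Grik and 0.249, 0.468, 0.335 and 0.352 CPM in SST, where CamK exceeded SST 6.80-fold (adjusted p = 1.26e-08). Efna3, the most abundant ephrin-A per length, was not called between the excitatory populations (adjusted p = 0.146) and was lower in SST, at 17.8 to 21.5 CPM against 50.8 to 70.7 in CamK. Part of the exons of Efna3 (14.1%) and Efna4 (10.5%) lies in another annotated gene, and the strand setting of the counting is not given.

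Efnb2 and Efnb3, transmembrane ephrins, were highest in CamK. Efnb2 was at 39.0, 41.2, 42.0 and 41.0 CPM in CamK, 11.2, 14.8, 14.7 and 15.1 CPM in Grik and 25.2, 29.9, 24.4 and 30.3 CPM in SST. The 3 groups did not overlap, and CamK exceeded Grik 2.93-fold (log2 1.55 ± 0.10 (SE), edgeR adjusted p = 8.2e-12). Efnb3 ran from 94.5 to 101 CPM in CamK, above all libraries of Grik (55.6 to 80.5) and SST (42.5 to 56.2). Efnb1 was called in none of the comparisons, with adjusted p-values of 0.959, 0.725 and 0.683 and log2 differences of at most 0.06 in size.

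Secreted semaphorins gave some of the widest differences, and each population had its own. Sema3a, the classical repellent that acts through Nrp1, was at 11.5, 12.4, 11.2 and 17.2 CPM in SST, 4.53, 6.21, 3.98 and 2.41 CPM in CamK and 0.630, 0.556, 0.607 and 0.504 CPM in Grik. The groups did not overlap, and SST exceeded Grik 22.7-fold (log2 difference Grik minus SST -4.51 ± 0.24 (SE), edgeR adjusted p = 2.67e-14). Sema3e, which binds Plxnd1 without a neuropilin, was at 106, 104, 115 and 89.7 CPM in Grik, 60.4, 50.4, 61.0 and 46.7 CPM in CamK and 7.002, 12.1, 10.04 and 11.7 CPM in SST. The difference from SST was 10.2-fold in Grik (adjusted p = 4.17e-13) and 5.35-fold in CamK (adjusted p = 6.98e-11), and that between CamK and Grik was not called with the covariate (adjusted p = 0.266). Sema3f, a ligand of Nrp2, was at 2.74, 3.36, 3.03 and 3.82 CPM in CamK, 0.218, 0.417, 0.733 and 0.656 CPM in Grik and 1.51, 0.882, 1.51 and 2.40 CPM in SST. All CamK libraries lay above the rest, with a log2 difference of 2.67 ± 0.36 (SE) from Grik (edgeR adjusted p = 1.89e-06) and 1.04 ± 0.33 (SE) from SST (adjusted p = 0.00939).

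Sema3c and Sema3d were highest in Grik. Sema3c was at 12.6, 12.9, 12.4 and 10.7 CPM in Grik, 3.42, 7.26, 5.25 and 5.45 CPM in SST and 2.34, 2.96, 1.40 and 2.46 CPM in CamK. Its groups did not overlap, and its log2 difference between CamK and Grik was -2.41 ± 0.20 (SE; edgeR adjusted p = 4.64e-10). The difference of CamK from SST was -1.22 ± 0.19 (SE; edgeR adjusted p = 6.37e-06) and moved to -0.14 with the covariate (adjusted p = 0.769). Sema3d was at 5.05, 4.82, 5.14 and 4.80 CPM in Grik and between 0.847 and 2.03 CPM in every other WT library. The Sema3d difference between CamK and Grik was -1.67 ± 0.25 (SE; adjusted p = 7.01e-06) and had an adjusted p of 0.0921 with the covariate, while that between Grik and SST was 1.88 ± 0.25 (SE; adjusted p = 6.22e-07).

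Both neuropilins, the ligand-binding subunits for secreted semaphorins, were highest in Grik. Nrp1 was at 161, 170.5, 177 and 161 CPM in Grik, 71.3, 60.2, 56.8 and 56.6 CPM in CamK and 12.9, 20.7, 15.3 and 14.8 CPM in SST. The 12 libraries fell into 3 separate ranges, and the 10.5-fold difference between Grik and SST (log2 3.39 ± 0.14 (SE), edgeR adjusted p = 3.18e-16) had the lowest adjusted p of the members in that comparison. Nrp2 was at 131, 146, 163 and 125 CPM in Grik, 53.8, 73.1, 45.9 and 42.5 CPM in SST and 34.3, 34.8, 24.3 and 31.0 CPM in CamK. CamK and SST changed places between the neuropilins: Nrp1 was higher in CamK (1.94, adjusted p = 4.02e-12) and Nrp2 higher in SST (-0.79, adjusted p = 1.64e-05, but 0.134 with the covariate), as log2 differences between CamK and SST. In Grik against CamK, Nrp2 was 4.54-fold higher (adjusted p = 8.32e-12).

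Plxnd1, the receptor of Sema3e, was the member with the widest difference between the excitatory populations. It was at 29.3, 31.5, 36.6 and 22.3 CPM in CamK, 1.31, 2.60, 1.73 and 2.73 CPM in Grik and 4.88, 6.62, 5.96 and 4.64 CPM in SST. Every CamK library lay above every other WT library, 14.3-fold above Grik on the fitted scale (log2 3.84 ± 0.38 (SE), edgeR adjusted p = 9.6e-08) and 5.42-fold above SST (log2 2.44 ± 0.35 (SE), adjusted p = 5.22e-06). The other plexins had smaller differences between CamK and Grik. Plxna1 and Plxna4, A-class plexins that signal for neuropilins, were higher in CamK and Grik than in SST, by 0.90 and 1.32 on the log2 scale for Plxna1 and 1.13 and 1.51 for Plxna4. Plxna1, Plxna3 and Plxna4 were called higher in Grik than in CamK, and none of them with the covariate (adjusted p = 0.426, 0.901 and 1). Plxna1 shares 10.7% of its exon bases with another gene. Plxna3 was highest in SST at 11.6 to 15.0 CPM, above 3.91 to 7.06 in CamK and 6.50 to 8.87 in Grik, although the difference from CamK had an adjusted p of 0.0749 with the covariate. Plxnc1, the receptor of Sema7a, was likewise highest in SST, at 58.2 to 67.6 CPM against 27.5 to 36.9 in CamK, whereas Sema7a was highest in CamK, at 127 to 161 CPM against 93.0 to 108 in Grik and 57.8 to 71.2 in SST.

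Plxnb3, a receptor for Sema5a, was lowest in CamK, at 1.31, 1.33, 0.113 and 0.645 CPM against 3.53, 4.75, 4.19 and 4.31 CPM in Grik and 2.44, 2.34, 2.12 and 2.05 CPM in SST. The groups did not overlap, with a log2 difference between CamK and Grik of -2.30 ± 0.53 (SE; edgeR adjusted p = 0.00156). With the non-neuronal covariate that difference was 0.02 (adjusted p = 0.988), and the one between CamK and SST turned from -1.40 to 1.62 (adjusted p = 0.0482). Its libraries followed the oligodendrocyte markers in their order of groups, Grik above SST above CamK, and their part in it was not tested beyond that fit. Plxnb1, a receptor for Sema4d, and Unc5b also turned from lower to higher in CamK than in SST with the covariate, from -0.66 to 1.12 (adjusted p = 0.00278) and from -0.74 to 0.92 (adjusted p = 0.0421).

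Of the 13 membrane semaphorins, 8 were called higher in Grik and 3 higher in CamK between the excitatory populations (21.1% and 20.9% of all genes). With the covariate only Sema6a was higher in Grik, and 2, Sema4c and Sema7a, were higher in CamK (9.87% and 10.9% of all genes). Of the calls that ended, the log2 difference moved from -0.45 to -0.38 for Sema4a and from 0.71 to 0.55 for Sema6c. It moved by more for Sema4d, Sema4f, Sema4g, Sema5a, Sema5b and Sema6d. Between Grik and SST, 7 were higher in Grik and 5 higher in SST with and without the covariate, against 28.1% and 29.2% of all genes without it and 27.8% and 27.6% with it. The class 6 members Sema6a, Sema6c and Sema6d, ligands of A plexins, were highest in SST together with Sema4g. Sema4g was at 46.0, 48.6, 43.3 and 40.5 CPM in SST, 7.59, 8.68, 10.6 and 9.06 CPM in Grik and 5.23, 6.34, 4.34 and 7.07 CPM in CamK. SST lay 7.77-fold above CamK (log2 -2.96 ± 0.13 (SE), edgeR adjusted p = 5.95e-16) and 4.97-fold above Grik (adjusted p = 2.41e-14), without overlap. Sema6a was at 18.5 to 21.4 CPM in SST, 9.49 to 12.2 in Grik and 2.83 to 5.32 in CamK, with a log2 difference between CamK and SST of -2.45 ± 0.15 (SE; adjusted p = 3.07e-13). Sema6c was at 7.85 to 12.6 CPM in SST and at most 3.48 CPM elsewhere (-2.68 ± 0.19 (SE) for Grik minus SST, adjusted p = 1.01e-11), and Sema6d at 63.4 to 71.9 CPM in SST and at most 29.6 CPM elsewhere (-1.54 ± 0.08 (SE) for CamK minus SST, adjusted p = 6.41e-14). Sema6b, of the same class, was not part of this group: it was lower in SST than in Grik, by 0.67 on the log2 scale (adjusted p = 1.8e-05).

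Class 5 semaphorins, which carry thrombospondin repeats, were highest in Grik. Sema5b was at 14.3, 15.7, 19.0 and 16.0 CPM in Grik, 6.30, 5.54, 4.13 and 6.14 CPM in CamK and 1.45, 1.97, 1.54 and 1.45 CPM in SST, and Grik exceeded SST 10.2-fold (edgeR adjusted p = 2.44e-09). Sema5a was at 104 to 116 CPM in Grik, 30.6 to 73.3 in CamK and 18.9 to 39.1 in SST, and its CamK libraries were the most scattered of these. Neither was called between CamK and Grik with the covariate (adjusted p = 0.307 for Sema5b and 0.43 for Sema5a).

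**Figure D3:**
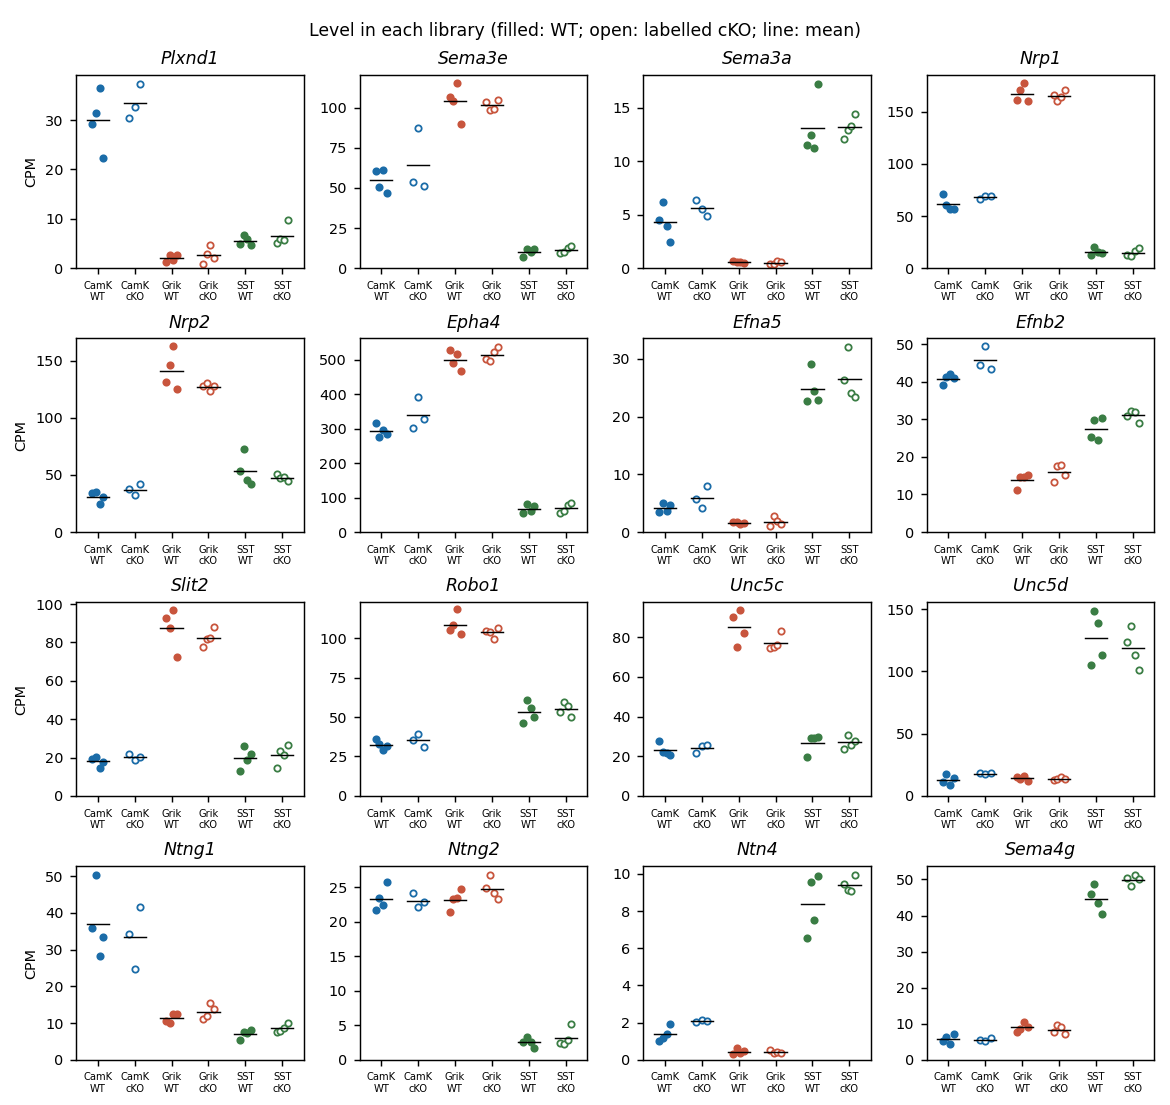
CPM of 16 members in each library (linear axis from 0), with filled points for WT, open points for libraries labelled cKO and a line at the mean of the 3 or 4 libraries of a group. Plxnd1, Ntng1 and Efnb2 are highest in CamK, Nrp1, Nrp2, Slit2, Robo1 and Unc5c in Grik, and Sema3a, Efna5, Unc5d, Ntn4 and Sema4g in SST, and the open points lie in the range of the filled ones of their population or close to it.

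Slit1, Slit2, Slit3, Robo1 and Robo2 had their highest mean in Grik, and for Slit1, Slit2 and Robo1 all 4 Grik libraries stood above the other 8. Slit2 was at 92.7, 87.6, 96.7 and 72.4 CPM in Grik, 19.1, 20.5, 14.8 and 17.9 CPM in CamK and 12.8, 25.9, 18.5 and 21.8 CPM in SST. CamK and SST overlapped (adjusted p = 0.535), and Grik lay 4.83-fold above CamK (log2 difference CamK minus Grik -2.27 ± 0.18 (SE), edgeR adjusted p = 6.48e-10) and 4.42-fold above SST (adjusted p = 3.98e-10). Slit1 was at 189, 239.6, 268 and 212 CPM in Grik, 131, 128, 105 and 109 CPM in CamK and 34.8, 51.0, 32.9 and 38.0 CPM in SST. Its 3 groups were apart, with 5.80-fold between Grik and SST (adjusted p = 1.09e-13), and the difference between CamK and Grik was not called with the covariate (adjusted p = 0.12). Slit3 was not called between the excitatory populations (log2 difference -0.23 ± 0.14 (SE), adjusted p = 0.215) and lower in SST, at 9.64 to 18.2 CPM against 47.1 to 54.0 in CamK and 49.8 to 68.9 in Grik.

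Robo1, a Slit receptor that repels commissural and other axons, was at 105, 108, 118 and 103 CPM in Grik, 46.1, 60.9, 55.4 and 49.8 CPM in SST and 35.9, 32.9, 29.4 and 31.9 CPM in CamK. The populations did not overlap, and Grik exceeded CamK 3.34-fold (log2 difference CamK minus Grik -1.74 ± 0.09 (SE), edgeR adjusted p = 7.53e-14), the lowest adjusted p of the members in that comparison. Robo2, its close relative, had smaller differences, with WT means of 68.8 ± 6.78 CPM in CamK, 90.1 ± 4.59 CPM in Grik and 83.6 ± 7.82 CPM in SST (SD, n = 4), and its calls of CamK against Grik and SST ended with the covariate (adjusted p = 0.151 and 0.628). Robo3, a divergent member of the family, was low, at 2.94, 3.62, 1.46 and 2.28 CPM in CamK and 0.951, 0.850, 0.254 and 0.332 CPM in SST (log2 2.10 ± 0.60 (SE), adjusted p = 0.00529). Robo4, known from endothelium, was at 0.322 to 1.37 CPM in SST and at most 0.149 CPM in the other WT libraries. Its difference between CamK and SST was -4.04 ± 0.59 (SE; adjusted p = 2.2e-06) and was not called with the covariate, at -2.25 (adjusted p = 0.105). Its difference between Grik and SST was -2.71 ± 0.53 (SE; edgeR adjusted p = 0.000105) and -2.23 with the covariate (adjusted p = 0.00118). The level of Robo4 moved with the endothelial and mural markers, whose part in it was not tested beyond that fit.

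Unc5 receptors, which mediate repulsion by netrins and also bind Flrt proteins, divided between Grik and SST: Unc5b and Unc5c were highest in Grik and Unc5d in SST. Unc5d was at 106, 149, 139 and 113 CPM in SST, 10.8, 17.6, 8.78 and 14.1 CPM in CamK and 15.0, 13.8, 16.2 and 12.1 CPM in Grik. CamK and Grik overlapped (adjusted p = 0.455), while SST lay 9.87-fold above CamK (log2 difference CamK minus SST -3.30 ± 0.17 (SE), edgeR adjusted p = 4.89e-14) and 8.87-fold above Grik (adjusted p = 8.56e-14). Unc5c was at 90.2, 74.8, 93.8 and 81.8 CPM in Grik, 27.5, 22.3, 21.8 and 20.8 CPM in CamK and 19.5, 29.0, 29.1 and 29.6 CPM in SST, so that Grik lay 3.69-fold above CamK (adjusted p = 4.64e-12). Dcc followed Unc5c, at 23.9 to 30.8 CPM in Grik against 9.98 to 15.2 in CamK and 10.5 to 15.6 in SST, the last pair not called (log2 -0.03 ± 0.14 (SE), adjusted p = 0.858). Unc5b was at 6.88, 10.5, 8.80 and 10.5 CPM in Grik and 3.28, 3.12, 2.43 and 2.02 CPM in CamK, a log2 difference of -1.76 ± 0.26 (SE; adjusted p = 7.52e-06) that had an adjusted p of 0.25 with the covariate. Unc5a, the most abundant per length in both excitatory populations, was not called between them (adjusted p = 0.521) and was lower in SST, at 25.9 to 38.2 CPM against 89.5 to 108 in CamK.

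The netrins themselves were low, and Ntn4 and Ntn5 had opposite orders between SST and the excitatory populations. Of the 3 netrins tested, 2 were called higher in CamK than in Grik, or 3 with the covariate (20.9% and 10.9% of all genes). Ntn1, the ligand of Dcc, had WT means of 1.36 ± 0.191 CPM in CamK, 1.12 ± 0.177 CPM in Grik and 2.12 ± 0.656 CPM in SST (SD, n = 4), and was called higher in SST than in Grik (edgeR adjusted p = 0.00351). Its log2 difference between CamK and SST was -0.64 (edgeR adjusted p = 0.0337) and turned to 0.54 with the covariate (adjusted p = 0.426). The Ntn1 difference between CamK and Grik was 0.29 (edgeR adjusted p = 0.405) and 1.22 with the covariate (adjusted p = 0.0364). Ntn4 was at 6.56, 9.59, 7.52 and 9.87 CPM in SST, 1.03, 1.15, 1.37 and 1.90 CPM in CamK and 0.298, 0.649, 0.355 and 0.469 CPM in Grik. The groups did not overlap, and the log2 difference between Grik and SST was -4.24 ± 0.22 (SE; edgeR adjusted p = 1.47e-14). Ntn5 showed the reverse order against SST, at 3.20, 4.10, 5.01 and 6.40 CPM in CamK, 1.37, 1.74, 2.04 and 1.88 CPM in Grik and 0.274, 0.361, 0.295 and 0.201 CPM in SST, a log2 difference between CamK and SST of 4.04 ± 0.28 (SE; adjusted p = 4.39e-12). Ntn5 shares 23.4% of its exon bases with Sec1, so reads of the neighbour can enter its count.

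Both netrin-G genes were higher in the excitatory populations than in SST. Ntng2 was at 21.7, 23.5, 22.5 and 25.8 CPM in CamK, 21.4, 23.2, 23.4 and 24.8 CPM in Grik and 2.60, 3.33, 2.61 and 1.78 CPM in SST. CamK and Grik overlapped (log2 difference 0.01 ± 0.17 (SE), edgeR adjusted p = 0.975), and both lay above SST, by 3.18 on the log2 scale for CamK (adjusted p = 1.63e-12) and 3.17 for Grik (adjusted p = 1.53e-12). Ntng1 was at 36.0, 50.5, 28.2 and 33.3 CPM in CamK, 10.6, 10.1, 12.4 and 12.5 CPM in Grik and 5.30, 7.53, 7.30 and 8.23 CPM in SST. CamK stood above both others, 3.24-fold over Grik (log2 1.70 ± 0.17 (SE), adjusted p = 4.28e-08) and 5.22-fold over SST (adjusted p = 6.02e-11). Ntng2 shares 14% of its exon bases with another gene.

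Efnb1, Plxna2, Sema3b and Sema4b were the 4 members called in none of the WT comparisons. Plxna2 had WT means of 73.9 ± 4.97 CPM in CamK, 78.2 ± 8.52 CPM in Grik and 82.8 ± 10.7 CPM in SST (SD, n = 4), and its log2 differences had standard errors of 0.09 each. Sema3b was low and scattered, from 0.498 to 2.16 CPM over the WT libraries. These values do not show that the levels are equal, and the standard errors give the precision of the comparison.

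The second question of the study was what the SLM2 cKO changes within a population. No member was called in CamK, Grik or SST by edgeR, DESeq2 or limma-voom at an adjusted p of 0.05, where edgeR called 0.0106% of all genes in each population. DESeq2 gave no adjusted p for 2 members in CamK and 1 in Grik. At an unadjusted p under 0.05, edgeR gave 10 members in CamK, 3 in Grik and 3 in SST, against 7.05%, 4.88% and 5.85% of all genes. The log2 fold changes ran from -0.93 to 1.07 in CamK, from -0.23 to 0.90 in Grik and from -0.50 to 0.83 in SST, and the most extreme of these belonged to members with group means under 2 CPM. Libraries of the genotypes did not overlap for 8 members with cKO above and 1 with cKO below in CamK (3.35% and 3.40% of all genes), 2 above and 0 below in Grik (2.43% and 2.16%), and 1 above and 0 below in SST (1.43% and 1.28%).

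The lowest p of any member was that of Ephb2 in CamK. It was at 19.1, 20.2, 22.8 and 21.9 CPM in CamK WT and 27.9, 25.4 and 28.4 CPM in CamK cKO libraries. The cKO libraries all lay above the WT libraries, by 0.37 ± 0.10 (SE) on the log2 scale (edgeR adjusted p = 0.4). In Grik, Ephb2 was at 32.6, 36.9, 40.8 and 35.3 CPM in WT and 43.6, 43.0, 39.9 and 45.3 CPM in libraries labelled cKO (log2 0.24 ± 0.09 (SE), edgeR adjusted p = 0.926), with overlap. In SST, its log2 fold change was 0.16 ± 0.09 (SE; adjusted p = 0.842). Ephb2 was thus the member with the lowest p in both excitatory populations, and it missed the threshold over all genes in each.

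The next members by p in CamK were Ntn4, Unc5d, Sema4a and Robo2. Ntn4 was at 1.03, 1.15, 1.37 and 1.90 CPM in WT and 2.04, 2.16 and 2.11 CPM in cKO libraries, without overlap (log2 0.62 ± 0.21 (SE), edgeR adjusted p = 0.605). Unc5d was at 10.8, 17.6, 8.78 and 14.1 CPM in WT and 18.5, 17.2 and 18.2 CPM in cKO libraries, where 1 WT library lay among the cKO values (log2 0.49 ± 0.17 (SE), adjusted p = 0.611). Sema4a, a transmembrane semaphorin, and Robo2 had log2 fold changes of 0.28 ± 0.11 (SE; adjusted p = 0.66) and 0.19 ± 0.08 (SE; adjusted p = 0.669). All of these values were higher in cKO and none passed the adjustment.

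In Grik, the members after Ephb2 were Efnb1, Sema4a, Efnb2 and Unc5a. Efnb1 was at 5.94, 7.23, 8.94 and 8.87 CPM in WT and 8.49, 10.3, 10.1 and 9.77 CPM in libraries labelled cKO (log2 0.32 ± 0.12 (SE), edgeR adjusted p = 0.926). The other 3 had log2 fold changes of 0.24, 0.20 and 0.22, with adjusted p-values of 0.964, 0.992 and 0.992. In SST, the 5 members with the lowest p were Efna1, Ephb6, Efna2, Efnb2 and Sema4d. Efna1 was at 0.249, 0.468, 0.335 and 0.352 CPM in WT and 0.524, 0.349, 0.645 and 0.918 CPM in cKO libraries (log2 0.80 ± 0.29 (SE), adjusted p = 0.833). Ephb6 was at 43.9, 50.3, 41.6 and 45.4 CPM in WT and 56.1, 49.3, 55.7 and 55.9 CPM in cKO libraries (log2 0.26 ± 0.10 (SE), adjusted p = 0.833), and in both genes 1 cKO library lay within the WT range. Efna2, Efnb2 and Sema4d had log2 fold changes of 0.31, 0.18 and 0.17, with adjusted p-values of 0.833, 0.84 and 0.841.

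Over the whole set, most values lay slightly above 0 in CamK and SST. The median log2 fold change of the 69 members was 0.15 in CamK, 0.06 in Grik and 0.11 in SST, against -0.0014, 0.0035 and 0.0225 over all genes. Values above 0 were found for 60 members in CamK (87.0%, against 49.5% of all genes), 39 in Grik (56.5% against 50.8%) and 56 in SST (81.2% against 56.0%). The non-neuronal score moved with the genotype in CamK, from -1.13 to -0.407 in cKO libraries against -2.32 to -1.11 in WT libraries, and with it as a covariate the median was 0.0149, with 37 of 69 members above 0. With the same covariate the median was 0.0309 in Grik (36 above 0) and 0.0679 in SST (44 above 0). In SST the median was 0.0275 without WT replicate 1 (42 above 0) and 0.0487 without cKO replicate 7 (38 above 0). Without cKO replicate 4 it was 0.168 (58 above 0). In Grik it was 0.0107 without WT replicate 3, 0.0168 without cKO replicate 2, 0.0354 without cKO replicate 3 and 0.0948 without WT replicate 5. These medians are a description of the libraries, and no test was made of them.

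**Figure D4:**
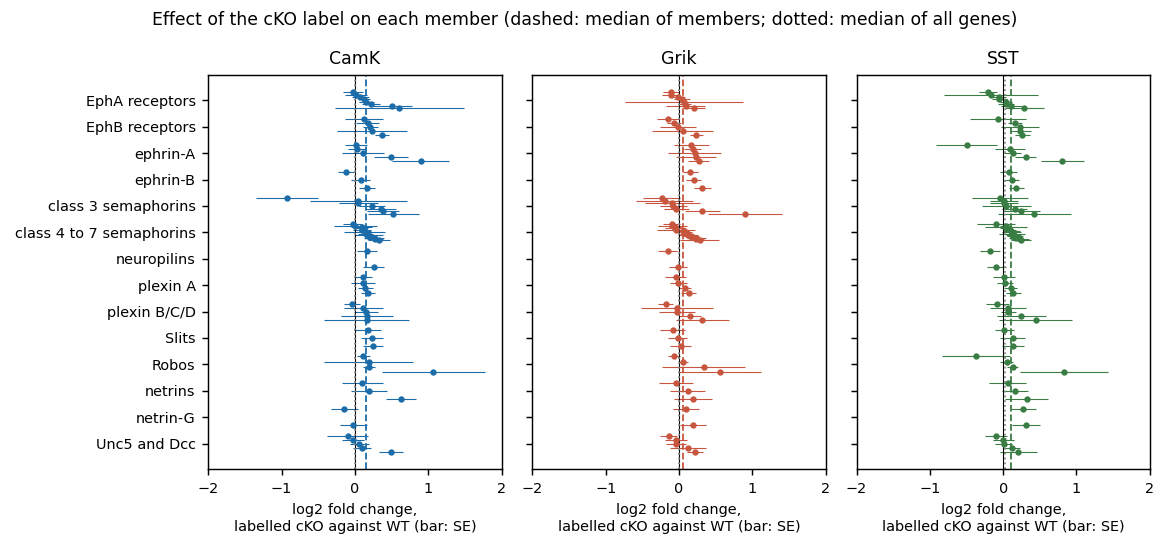
Log2 fold change of libraries labelled cKO against WT for each of the 69 members (points, with bars for the SE) by family in CamK, Grik and SST, with a dashed line at the median of the members and a dotted line at the median of all genes. Most points lie between 0 and 0.5, and the widest bars belong to members with few reads.

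Whether the difference between libraries labelled cKO and WT varied between populations was tested as the difference of the log2 fold changes. For Grik, the level of Khdrbs3 goes against that label. No member was called by edgeR, DESeq2 or limma-voom, where edgeR called 0.00531% of all genes for CamK against Grik, 0% for CamK against SST and 0.0106% for Grik against SST. DESeq2 gave no adjusted p for 1 member in the difference of CamK and Grik and 2 in that of CamK and SST. At an unadjusted p under 0.05, edgeR gave 4 members for CamK against Grik, 3 for CamK against SST and 1 for Grik against SST, out of 69 (6.50%, 7.85% and 3.86% of all genes). In the differences with CamK, which share the CamK libraries, the first member was Unc5d, at 0.53 ± 0.23 (SE; edgeR adjusted p = 0.754) against Grik and 0.58 ± 0.22 (SE; adjusted p = 0.601) against SST. Nrp2 came next among members that both differences name, at 0.41 and 0.43 (adjusted p = 0.759 and 0.617). Ntn4, Sema6d and Ephb6 completed the 5 members with the lowest p for CamK against Grik, with differences of 0.66, 0.26 and 0.28. Efna4, Efna1 and Robo4 completed those for CamK against SST, with 1.39, -0.70 and 1.44. For Grik against SST they were Ephb6, Ephb3, Plxnc1, Sema4g and Sema6a, with -0.33, -0.39, -0.25, -0.26 and -0.29 and an adjusted p of 1 for each.

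Genes that act with these ligands and receptors were taken from lists of co-receptors and further ligands (17 genes, all tested) and of cytoplasmic effectors (40 genes, all tested). Of the co-receptors and further ligands, edgeR called 4 higher in CamK and 6 higher in Grik, 6 higher in CamK and 7 higher in SST, and 7 higher in Grik and 6 higher in SST in the 3 WT comparisons. Of the effectors it called 12 higher in CamK and 10 higher in Grik, 11 higher in CamK and 20 higher in SST, and 11 higher in Grik and 20 higher in SST. Over all genes, 42.0%, 60.1% and 57.3% were called in the same 3 comparisons. With the non-neuronal covariate the co-receptor and ligand list had 8, 7 and 14 calls and the effector list 20, 19 and 30, in the same order, against 20.7%, 34.6% and 55.4% of all genes in that fit. None of either list was called in the cKO comparisons.

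Binding partners of members described above were read from the same table, as a choice made with their values known. Lrrc4c, the NGL partner of Ntng1, was like Ntng1 highest in CamK, with means of 126 CPM in CamK, 79.1 CPM in Grik and 70.6 CPM in SST. The log2 difference of Lrrc4c was 0.67 ± 0.08 (SE; edgeR adjusted p = 1.69e-07) between CamK and Grik. Lrrc4, the partner of Ntng2, did not follow Ntng2, with means of 112, 108 and 107 CPM in CamK, Grik and SST and no call. Flrt2 and Flrt3 are ligands of Unc5 receptors. Flrt2 was highest in SST at 58.1 CPM, against 43.3 in CamK (adjusted p = 0.512 with the covariate) and 26.9 in Grik, and Flrt3 was highest in Grik at 51.5 CPM, against 22.6 in CamK and 11.6 in SST. Between Grik and SST the log2 difference was -1.11 ± 0.15 (SE; adjusted p = 8.69e-07) for Flrt2 and 2.15 ± 0.12 (SE; adjusted p = 3.18e-14) for Flrt3. Ngef, the exchange factor also called ephexin that acts downstream of Epha4, was at 179 CPM in CamK, 47.0 CPM in Grik and 31.5 CPM in SST, an order that differs from that of Epha4.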

How the data were processed

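The deposited values are whole-number read counts per gene and library, not normalized, in 1 table. Trimmomatic, STAR and build GRCm38 are named in the submitters' processing notes, without versions, and the strand setting of the counting was not given in the sources used here. Rows that name no gene held 12.4 to 18.4% of the reads of a library and entered neither library sizes nor tests.

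Gene symbols, exon lengths and coding lengths came from the GENCODE M21 annotation of GRCm38, in which 45143 of the gene identifiers had a symbol. Counts of all 23 libraries were filtered with filterByExpr, scaled by TMM, and fitted in 1 model with edgeR 4.0.16 (R 4.3.3), as robust quasi-likelihood fits with 17 residual degrees of freedom before moderation. All p-values were adjusted by Benjamini-Hochberg over all 18823 genes in each comparison, tests were two-sided, and SE is that of the log2 fold change. CPM is TMM-scaled. A level per length is CPM divided by kb of merged exons. The 9 comparisons were the 3 pairs of WT populations, cKO against WT in each population, and the 3 differences of those effects. The calls were also run on simulated data with 200 genes changed in a comparison, and no conclusion is drawn from that run here.

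DESeq2 1.42.0, limma-voom (limma 3.58.1), another scaling, other filters on low counts, the compared groups alone, a replicate block, a non-neuronal covariate, the longest coding sequence as the length, and leaving out each replicate were tried as alternatives. The settings of the cKO medians were added after the data were seen.

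The members were set by gene name, and this rule, the gene lists and the tests were chosen with earlier results of these data known. Members were named by these rules: in each WT comparison the 8 per direction with the largest change among those called, with at least 1 CPM in the higher group and libraries that do not overlap; in each cKO comparison and difference the 5 with the lowest p; in each family the member with the highest level per length; and the member under the filter. Other members were named to complete their families, with their values known.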

Additional observations from a re-analysis of the deposited data

Results flagged for a closer look

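In 15 of 345 groups of 4 libraries, over all 69 members tested, 1 library lay far from the other 3. Chance alone gives about 1 in 20 such groups, or 17.2 of 345.

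In WT libraries, Unc5c was at 19.5 CPM in SST WT replicate 1, against 29.0 to 29.6 CPM in the other libraries of its group. In the same library Plxnc1 was at 58.2 CPM against 66.2 to 67.6 CPM, and Epha8 at 0.446 CPM against 0.843 to 0.856 CPM. Ephb3 was at 7.73 CPM in SST WT replicate 2 against 6.19 to 6.41 CPM, and Sema4a at 13.5 CPM in SST WT replicate 5 against 11.4 to 11.6 CPM. Sema4a was at 15.1 CPM in CamK WT replicate 5 against 12.03 to 12.33 CPM, and Sema6d at 26.3 CPM in CamK WT replicate 3 against 21.5 to 21.9 CPM. Efnb2 was at 11.2 CPM in Grik WT replicate 3 against 14.7 to 15.1 CPM.

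In libraries labelled cKO, Ephb6 was at 49.3 CPM in SST replicate 4 against 55.7 to 56.1 CPM, and Dcc in the same library at 16.2 CPM against 11.4 to 11.9 CPM. Sema6d was at 80.2 CPM in SST replicate 5 against 62.8 to 64.8 CPM, and Epha3 at 6.81 CPM in SST replicate 7 against 7.62 to 7.74 CPM. Ntn5 was at 2.70 CPM in Grik replicate 2 against 1.60 to 1.69 CPM, and Ephb3 in that library at 10.6 CPM against 8.23 to 8.52 CPM. Ephb1 was at 35.4 CPM in Grik replicate 4 against 36.8 to 36.9 CPM.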

How the results depend on the processing

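With another scaling, the number of members called was 50 between CamK and Grik, 56 between CamK and SST and 59 between Grik and SST. With no filter on low counts it was 50, 53 and 59, with a filter of at least 1 CPM in 3 libraries 50, 53 and 54, with DESeq2 51, 57 and 59, with limma-voom 53, 55 and 60, and with the compared groups alone 49, 55 and 60. Leaving out each replicate in turn gave 48 to 51, 52 to 55 and 56 to 60. With the non-neuronal covariate the count between CamK and Grik fell to 30, and there Plxnb3 was at 0.0201 and Sema3d and Unc5b were no longer called. Counts in the cKO comparisons were 0 in every alternative run. The median level per length was 6.15, 7.07 and 4.39 CPM per kb of coding sequence in CamK, Grik and SST. The cKO median in CamK was 0.0149 with the covariate and 0.109 to 0.195 without each replicate.

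For libraries of different groups with the same replicate number, correlations of their deviations ran from -0.0999 to 0.129. With 3 or 4 libraries per group, these values cannot settle whether such libraries share an animal or a day. With the replicate number as a block, 53, 57 and 60 members were called in the WT comparisons and 0 in the cKO comparisons, and the cKO median was 0.0459 in SST and 0.0937 in Grik. Few reads limit members such as Epha2 and Robo4.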
